A study of Mus musculus with 2 samples.

Results

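The genes described here are 10 replacement histone variant genes of the mouse, H3f3a, H3f3b, Cenpa, H2afz, H2afv, H2afx, H2afy, H2afy2, H1f0 and H1fx. They were chosen by name from what they encode, and their identifiers were found in the later annotation GENCODE M21, so that they are 10 of the 43346 genes measured. Their RNA was measured as 39 transcript forms among 103639 annotated transcripts.

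Whole liver was taken from mouse embryos of the strain B6NCrl at embryonic day 15.5, and total RNA longer than 200 nt was sequenced from an input of 10 ng with spike-ins added. There were 2 libraries of 1 group, numbered by the labels as biological replicates 1 and 2. Replicate 1 pooled 78 embryos and replicate 2 pooled 62, both of mixed sex and labelled healthy. The series holds no other tissue, age or treatment, so each level is a description of this liver with the spread over both pools.

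Most histone protein is made from replication-dependent genes, which are active while a cell copies its DNA and whose messenger RNA normally ends in a stem-loop in place of a poly(A) tail. Replacement genes are transcribed outside of replication as well, mostly carry introns and poly(A) tails, and encode variants that chaperones place into chromatin when older histones are lost or when a region takes on a particular role. Fetal liver is the main site of blood formation at this age and holds many dividing erythroid cells beside the hepatocytes.

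H3f3a and H3f3b encode the same protein, H3.3, from separate genes. The opening of each coding sequence is shown because it shows how far the messages of 1 protein differ, and the capitals mark the 24 of 120 bases that differ. Both sequences were read 5′ to 3′ from the GENCODE M21 transcripts on GRCm38, H3f3a-205 on the reverse strand of chromosome 1 and H3f3b-201 on the reverse strand of chromosome 11.
H3f3a: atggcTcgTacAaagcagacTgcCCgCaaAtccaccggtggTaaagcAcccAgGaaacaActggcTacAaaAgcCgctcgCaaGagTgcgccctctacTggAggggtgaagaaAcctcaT
H3f3b: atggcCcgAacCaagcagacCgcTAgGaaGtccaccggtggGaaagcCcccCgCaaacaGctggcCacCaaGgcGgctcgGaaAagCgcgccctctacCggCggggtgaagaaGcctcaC
Over the whole coding sequence 95 of 408 bases and 83 of 136 codons differed, and 0 of these codons encoded another amino acid. This holds for H3f3a-205, which carried 6.20% of the RNA level of H3f3a on average. The forms with more RNA, H3f3a-201 with 135 annotated codons and H3f3a-204 with 357 coding bases, were not compared. The coding sequences of H2afz and H2afv, which encode the H2A.Z proteins, were 79.2% identical, and 3 of 128 codons encoded another amino acid. Those of the macroH2A genes H2afy and H2afy2 were 70.1% identical, and those of the linker histone genes H1f0 and H1fx 50.9%.

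H2afy makes alternative messages that carry either of a pair of mutually exclusive exons, and the choice changes the macro domain, the large non-histone part of macroH2A. The macroH2A1.1 exon lies at chr13:56088252-56088342 (91 nt) and the macroH2A1.2 exon at chr13:56089758-56089857 (100 nt), both on the reverse strand of GRCm38 in GENCODE M21. Capitals mark the bases that differ after alignment, in which 48 of 100 positions were identical.
macroH2A1.1 exon: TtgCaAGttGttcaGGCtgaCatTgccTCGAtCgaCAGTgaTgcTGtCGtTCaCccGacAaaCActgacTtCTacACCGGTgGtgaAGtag
macroH2A1.2 exon: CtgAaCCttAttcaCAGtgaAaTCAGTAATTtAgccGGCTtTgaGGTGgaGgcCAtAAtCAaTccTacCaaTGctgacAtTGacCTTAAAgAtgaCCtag

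The libraries held 34039426 and 44200838 expected counts in replicates 1 and 2 once spike-ins were left out. Levels are in TPM (transcripts per 1000000 transcripts), a unit that corrects for transcript length and so can be compared between genes. Markers of fetal liver were present, as the 5 hepatocyte markers summed to 39410 and 31106 TPM, the 7 erythroid markers to 382697 and 390839 TPM, the 5 markers of dividing cells to 1166 and 1220 TPM, and 0 of 5 markers of other organs reached 1 TPM in both libraries. Counts differed between the libraries by more than sampling noise, with a chi-square of 18.0 per gene over 17602 genes. In bulk tissue, fewer cells of a type and less RNA per cell cannot be told apart.

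All 10 replacement genes reached 1 TPM in each library, against 53.1% of the 21474 protein-coding genes. Together they made up 3898 and 4225 TPM, which is 0.406 ± 0.0231% of all RNA by TPM (SD, n = 2). H3f3a, H2afz and H3f3b carried 83.9 ± 0.568% of that sum. The highest gene, H3f3a, lay 713-fold above the lowest, H1fx, in either library.

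**Figure D1:**
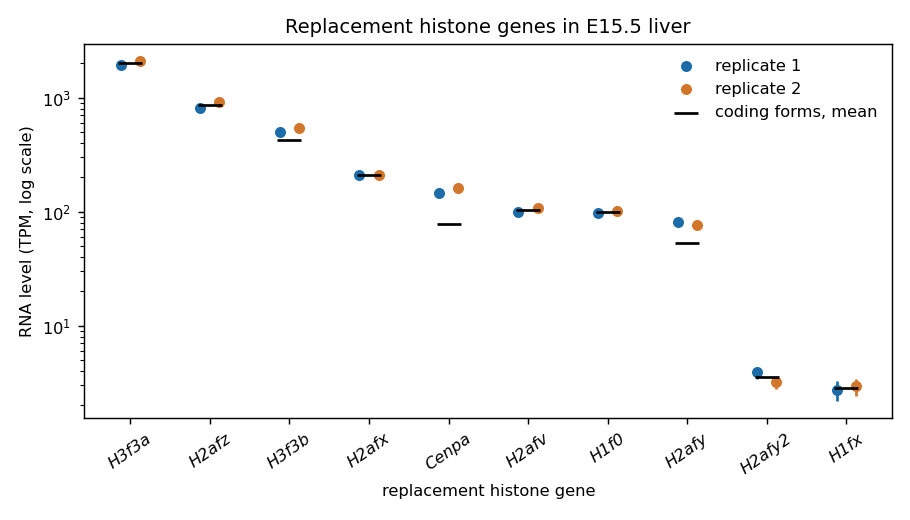
RNA level of the 10 replacement histone genes in TPM on a log scale, with blue points for replicate 1 and orange points for replicate 2. Vertical lines are the deposited intervals, rescaled like the TPM, and a black bar is the mean of the protein-coding forms. The points of H3f3a and H2afz lie just above the upper ends of their intervals. The genes run from H3f3a at 1943 and 2099 TPM down to H1fx at 2.72 and 2.94 TPM, and the black bar lies well below the points for H3f3b, Cenpa and H2afy.

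H3f3a, one source of H3.3, lies at chr1:180800832-180813943 on the reverse strand. It reached 1943 TPM in replicate 1 and 2099 TPM in replicate 2 (2021 ± 110.4 TPM, SD, n = 2), from 48016 and 70780 expected counts. In both libraries it ranked 23 among protein-coding genes. H3f3b (chr11:116021912-116027962, reverse strand), the other source, reached 497 and 544 TPM (521 ± 33.2 TPM), ranking 138 and 125. The H3f3a level was 3.91 times that of H3f3b in replicate 1 and 3.86 times in replicate 2 (3.88 ± 0.0352). Over all forms the ratio thus varied less relative to its mean than either level did. Counted over protein-coding forms alone it was 4.69 ± 0.137, and by expected counts, with no correction for length, 1.83. Over protein-coding forms the ratio varied slightly more relative to its mean than H3f3b, at 426 ± 11.7 TPM.

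Cenpa (chr5:30666777-30674830, forward strand) encodes CENP-A, the H3 variant that marks centromeres. It had 147 TPM in replicate 1 and 162 TPM in replicate 2 (155 ± 10.8 TPM). Its forms annotated as protein-coding summed to 75.0 and 82.1 TPM, or 50.8 ± 0.310% of the gene, the lowest such share among the 10 genes.

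H2afz (chr3:137864487-137866922, forward strand) encodes H2A.Z.1, which is placed at gene starts by chromatin remodellers. Its level was 815 and 918 TPM (867 ± 73.4 TPM), second among the 10 genes. H2afv (chr11:6427229-6444443, reverse strand), which encodes H2A.Z.2, had 100.03 and 108 TPM (104 ± 5.90 TPM). H2afz exceeded H2afv 8.14-fold in replicate 1 and 8.47-fold in replicate 2 (8.31 ± 0.234), a wider gap than that between the H3.3 genes. H2afx (chr9:44334694-44336077, forward strand), whose product is phosphorylated around DNA double-strand breaks, had 211 and 209 TPM (210 ± 1.69 TPM). Its values were the closest of all 10 genes relative to their mean.

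H2afy (chr13:56073619-56136361, reverse strand), which encodes macroH2A1, had 80.5 and 77.0 TPM (78.8 ± 2.46 TPM). H2afy2 (chr10:61738665-61784147, reverse strand), which encodes macroH2A2, had 3.93 and 3.21 TPM (3.57 ± 0.506 TPM). MacroH2A is best known for its enrichment on the inactive X chromosome. The H2afy level was 20.5 times that of H2afy2 in replicate 1 and 24 times in replicate 2 (22.3 ± 2.47). H2afy2 overlaps Aifm2, a gene on the opposite strand with 4.06 and 4.07 TPM. Whether the counting used strand is not given in the sources used here, so reads of the overlap cannot be told apart.

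The linker histones bind the DNA that enters and leaves a nucleosome, and H1.0, the product of H1f0, is known to accumulate in cells that stop dividing. H1f0 (chr15:79028450-79030504, forward strand) had 97.9 and 101 TPM (99.3 ± 1.94 TPM). H1fx (chr6:87980421-87981637, reverse strand) had 2.72 and 2.94 TPM (2.83 ± 0.154 TPM), from 94.9 and 138 expected counts. H1f0 exceeded H1fx 35.9-fold in replicate 1 and 34.2-fold in replicate 2 (35.1 ± 1.22), the largest ratio of the 4 pairs by TPM. With 2 libraries the smallest p of a sign test is 0.5, so the pair ratios carry their spread and no test.

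In order of mean level the genes ran H3f3a, H2afz, H3f3b, H2afx, Cenpa, H2afv, H1f0, H2afy, H2afy2 and H1fx. The ranges of H2afv and H1f0 overlapped over the libraries, and those of every other neighbour in the order did not. The widest gap between neighbours lay between H2afy and H2afy2, at 22.1-fold, while H2afv and H1f0 differed 1.05-fold. The only form of H1f0 was deposited with 2287 nt and has 2055 nt in M21. Its TPM, and the order of H2afv and H1f0, therefore rest on the older annotation.

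The libraries were next compared gene by gene, as the log2 of replicate 1 over replicate 2 with 1 TPM added to each value. This compares the libraries, not conditions, and 1 library on each side gives no test. Between the libraries 0 of the 10 genes differed by more than 0.32 on the log2 scale, against 9.11% of the 8781 genes at 5 TPM or more in either library, and 0 by more than 1, a 2-fold difference, against 0.672%. Of the 10 genes 8 passed the 5 TPM limit, and H2afy2 and H1fx did not. By this measure 7 of the 10 genes were lower in replicate 1, against 39.2% of all genes at 5 TPM or more.

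The log2 differences were -0.17 for H2afz, -0.14 for Cenpa, -0.13 for H3f3b, -0.11 for both H3f3a and H2afv, -0.08 for H1fx and -0.04 for H1f0. H2afy2 stood highest at 0.23. H2afx at 0.02 and H2afy at 0.06 were above 0 by TPM but at -0.06 each when expected counts were scaled by edgeR's TMM or by DESeq2's median of ratios. Their direction therefore depends on the scaling. The sizes depend on it too: by TMM the values were -0.24 for H2afz, -0.21 for Cenpa, -0.20 for H3f3a, -0.18 for H1fx, -0.16 for H3f3b, -0.11 for H1f0 and -0.10 for H2afv, and H2afy2 at 0.22 was the only gene above 0. By TPM with 1 TPM added, the median was -0.10 over the 10 genes and 0.04 over all genes at 5 TPM or more.

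The interval from counting error alone lay below 0 for 6 of the 10 genes. The share of all genes with such an interval was not computed, so this count does not set the 10 genes apart. For H3f3a the log2 ratio of counts scaled by library totals was -0.18, with an exact 95% Clopper-Pearson interval of -0.20 to -0.17, and for H2afz it was -0.22 (-0.25 to -0.20). For the other 4 genes the interval crossed 0. The 2 lowest genes had the widest intervals, -0.01 to 0.49 for H2afy2 and -0.55 to 0.23 for H1fx. Beside these values, the 5 hepatocyte markers had a median log2 difference of 0.30, the 7 erythroid markers one of 0.04 and the 5 markers of dividing cells one of -0.05, and the part of cell makeup in the members' differences was not tested.

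**Figure D2:**
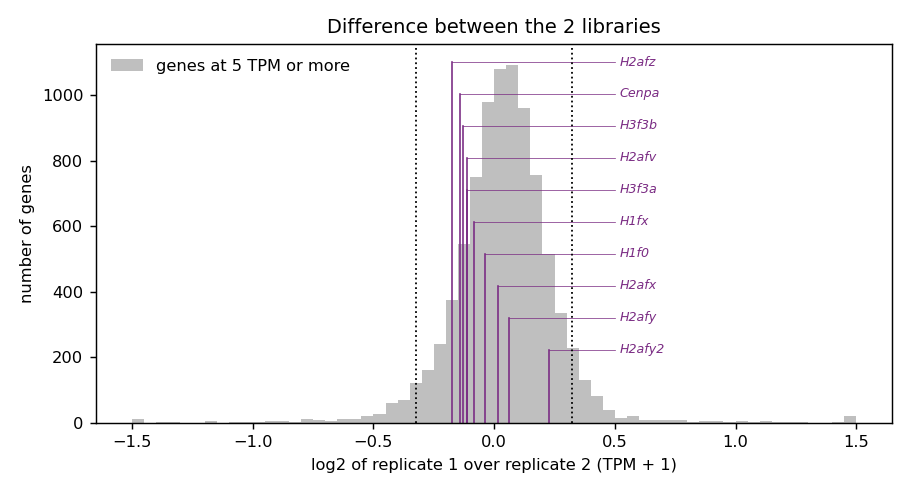
Number of genes (grey bars, genes at 5 TPM or more in either library) by the log2 of replicate 1 over replicate 2 with 1 TPM added, values beyond 1.5 being drawn in the end bars; purple lines mark the replacement histone genes and dotted lines a log2 difference of 0.32 either way. All 10 genes lie between the dotted lines, from H2afz at -0.17 to H2afy2 at 0.23, and H2afy2 and H1fx were under the 5 TPM limit.

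The replacement genes were then set beside the replication-dependent genes of the same histone class. For H3 the 3 replacement genes summed to 2588 TPM in replicate 1 and 2806 TPM in replicate 2 (2697 ± 154 TPM), and the 12 replication-dependent genes to 276 and 333 TPM (305 ± 40.3 TPM). The replacement share of H3 RNA was thus 90.4% and 89.4% (89.9 ± 0.686%). H3f3a alone was 14.3-fold above Hist1h3i, the highest replication-dependent H3 gene at 141 ± 22.9 TPM. The next of these, Hist2h3b, had 81.9 ± 13.6 TPM.

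In the H2A class the order was the other way round. The 5 replacement genes summed to 1210 and 1316 TPM (1263 ± 74.6 TPM), against 3854 and 4695 TPM (4274 ± 595 TPM) for the 18 replication-dependent genes, a replacement share of 23.9% and 21.9% (22.9 ± 1.42%). A single gene set this share: Hist1h2ap, at 3816 ± 531 TPM, held 89.3% of the replication-dependent H2A RNA in each library. Without Hist1h2ap the replacement share was 74.6% and 72.4% (73.5 ± 1.56%), an alternative chosen after its value was seen. The next gene, Hist1h2ae, had 171 ± 35.04 TPM, below H2afz and H2afx and above H2afv.

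For the linker histones, H1f0 and H1fx summed to 101 and 104 TPM (102 ± 2.10 TPM), against 176 and 188 TPM (182 ± 8.21 TPM) for the 6 replication-dependent genes. Their share was 36.3% and 35.5% (35.9 ± 0.565%). H1f0 was nonetheless the highest gene of the class, above Hist1h1c at 75.1 ± 2.81 TPM and Hist1h1e at 63.8 ± 3.10 TPM.

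The shares depend on the unit. By expected counts, in which longer transcripts weigh more, the replacement share was 95.7% for H3, 44.5% for H2A and 55.2% for H1. Replication-dependent histone genes are short and nearly identical to each other, so the split of reads among them is uncertain. The labels' protocol links include the manual of a kit that primes from poly(A), without stating whether these libraries were made with it, so less RNA of genes without a tail and less capture of it cannot be told apart.

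**Figure D3:**
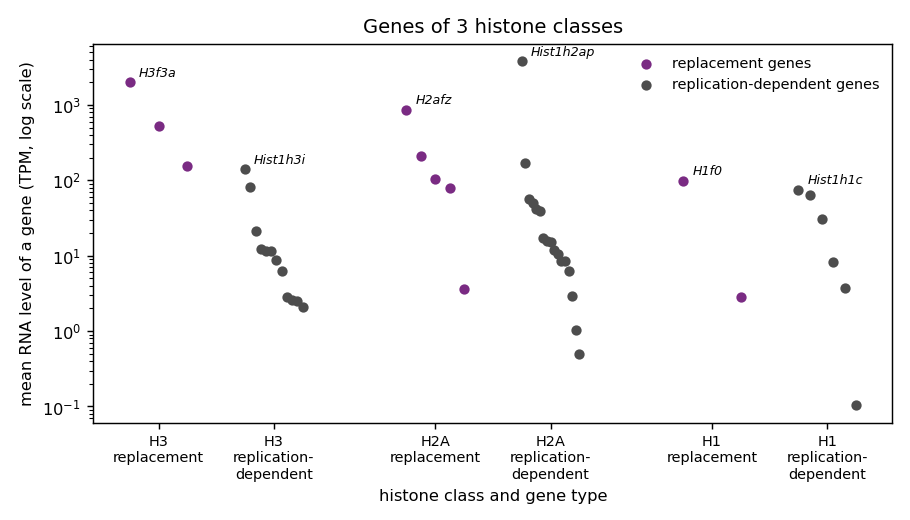
Mean RNA level of each gene in TPM on a log scale, with replacement genes in purple to the left of the replication-dependent genes of the same class in grey, for H3, H2A and H1; genes at 0 in both libraries are not drawn. H3f3a lies above every replication-dependent H3 gene, Hist1h2ap lies above every replacement H2A gene, and H1f0 lies above Hist1h1c.

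The annotated ends of the messages differed between the gene types. The stem-loop was searched as GGNNCTT followed by NTNAG and NNCC, 16 letters in all where N is any base, on the sense strand of the transcripts alone. It was found in 1 of the 10 replacement genes and in 24 of the 36 replication-dependent genes of the 3 classes. Over all protein-coding transcripts, counted singly and not by gene, it was found in 209 of 58797 (0.355%). A poly(A) signal, AATAAA or ATTAAA, lay in the last 40 nt of an annotated form in 8 of the 10 replacement genes and in 5 of the 36 replication-dependent genes. The share of all genes with a signal in that window was not counted. H3f3b and H2afy had none in that window, and the signal of H3f3b-201 lay 44 nt from its end. Several replication-dependent transcripts without the stem-loop are annotated at about the length of a coding sequence, such as Hist1h3i at 411 nt. In those, a stem-loop or poly(A) signal beyond the coding sequence could not be found.

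The replacement gene with the motif was H2afx, on the forward strand at chr9:44335240-44335255. It is shown with the stem-loop of Hist1h2ap, on the reverse strand of chromosome 13, from GENCODE M21, with the motif in capitals.
H2afx: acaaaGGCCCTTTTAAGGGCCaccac
Hist1h2ap: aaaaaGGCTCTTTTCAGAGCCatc
In Hist1h2ap the motif ended 3 nt before the end of the transcript. In H2afx it ended 822 nt before the end, and a poly(A) signal lay 35 nt from that end, so the annotated transcript holds both. In human cells the H2A.X gene is known to make a short message ending at the stem-loop and a long polyadenylated one. H2afx has 1 measured form, the long one, so the RNA of a short form cannot be told apart from it. H2afx, H1f0 and H1fx have 1 exon each, and the other 7 genes have introns.

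Transcript forms were next compared within each gene, as the share of the gene's TPM. Of the 39 forms 18 held at least 5% of their gene in either library, and 21 did not. H2afx, H2afy2, H1f0 and H1fx were measured as 1 form each.

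Of H3f3a, H3f3a-201 held 62.9% and 66.7% of the gene in replicates 1 and 2. The shorter coding form H3f3a-204 held 28.1% and 25.4% of the TPM but 12.8% of the expected counts. H3f3a-205 held 6.27% and 6.13%, and its annotated end lies 1865 nt beyond that of H3f3a-201. As it is the longest form, H3f3a-205 held 21.3% of the gene's expected counts. It also carried the poly(A) signal, 22 nt from its end.

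H3f3b-201, the main coding form of H3f3b, held 83.9% and 79.7%. H3f3b-204, annotated as a processed transcript without a coding sequence, held 14.0% and 17.9% of the TPM but 7.31% of the expected counts. H2afz was nearly all H2afz-201, at 96.7% and 96.2%.

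In Cenpa the coding form Cenpa-205, of 134 codons, held 49.2% and 48.9%. Cenpa-202, annotated as a target of nonsense-mediated decay with a reading frame of 42 codons, held 37.8% and 37.3%, and Cenpa-204, of the same type, 6.48% and 6.85%. These 3 shares moved by less than 1 percentage point between the libraries. M21 lists other lengths for Cenpa-205 and Cenpa-202 than the deposited tables, so their lengths, and with them their TPM, rest on the older annotation.

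H2afv was split between coding forms that differ by an exon and at their ends. The exon, at chr11:6433724-6433837 on the reverse strand (GRCm38, GENCODE M21), is 114 nt long, which is 38 codons and keeps the reading frame. It is shown in capitals between the 12 bases on each side in H2afv-202, above the junction of H2afv-201 that lacks it.
H2afv-202: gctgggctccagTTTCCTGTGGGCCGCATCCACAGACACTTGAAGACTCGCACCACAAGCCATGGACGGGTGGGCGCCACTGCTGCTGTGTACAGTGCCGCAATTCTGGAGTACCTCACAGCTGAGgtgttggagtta
H2afv-201: gctgggctccaggtgttggagtta
H2afv-202, which encodes the whole protein of 128 codons, held 39.5% and 34.9% of the gene. H2afv-201, of 90 codons, held 60.5% and 65.1% of the TPM but 31.7% of the expected counts. H2afv-201 is 519 nt long and H2afv-202 is 1633 nt long, and the order of the forms turns with the correction for length. The annotated end of H2afv-202 lies 909 nt beyond that of H2afv-201, so the shares do not measure the use of the exon alone.

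H2afy-201, which carries the macroH2A1.2 exon printed above, held 53.7% and 62.2% of H2afy. H2afy-202, with the macroH2A1.1 exon, held 11.96% and 8.60%. H2afy-204, a processed transcript without a coding sequence, held 28.3% and 24.1% of the TPM but 13.0% of the expected counts. Among the 3 forms with either exon, macroH2A1.1 was 17.5% in replicate 1 and 11.95% in replicate 2 (14.7 ± 3.92%), or 9.63 and 6.63 TPM of macroH2A1.1 beside 45.4 and 48.8 TPM of macroH2A1.2. MacroH2A1.2 was the higher form in both libraries. The deposited interval for H2afy-202, rescaled like its TPM, was 7.74 to 11.2 TPM in replicate 1. In replicate 2 it was 5.42 to 7.89 TPM, and the intervals overlapped. H2afy-202 was deposited with 2037 nt and has 1933 nt in M21, so its TPM and the macroH2A1.1 share rest on the older annotation.

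Taking protein-coding forms alone lowered 3 genes by more than their spread. H3f3b was then at 426 ± 11.7 TPM, Cenpa at 78.5 ± 4.998 TPM and H2afy at 53.7 ± 1.21 TPM. In H3f3a and H2afz the coding share was 98.8 ± 0.206% and 99.6 ± 0.0934%, and H2afv, H2afx, H2afy2, H1f0 and H1fx had coding forms only.

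**Figure D4:**
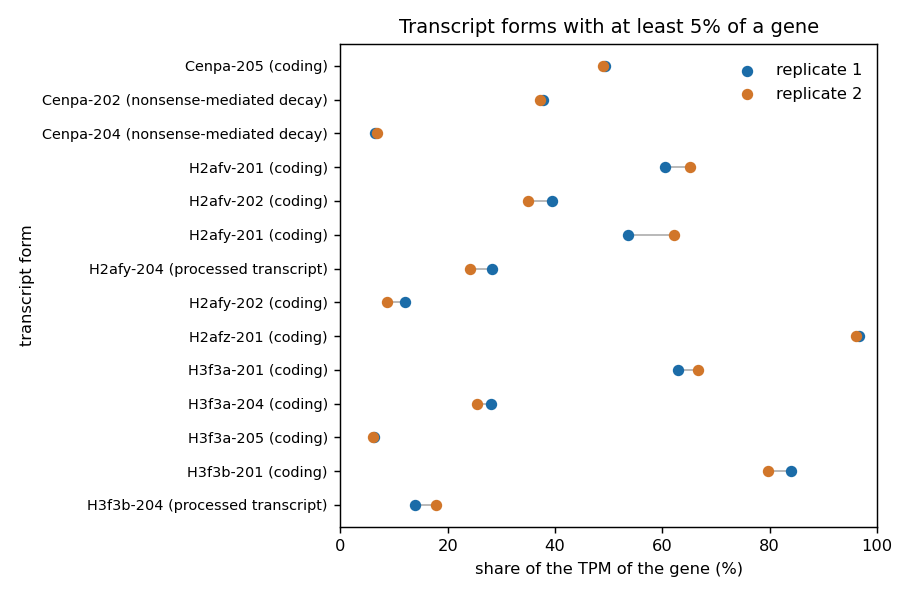
Share of a gene's TPM, in percent, held by each transcript form with at least 5% of its gene in either library, for genes with more than 1 form, with blue points for replicate 1 and orange points for replicate 2. The Cenpa forms coincide between the libraries, at 49.2% and 48.9% for Cenpa-205, and H2afy-201 shows the widest step, with 53.7% in replicate 1 and 62.2% in replicate 2.

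Processed pseudogenes, which are copies of a message in the genome, can take reads from a gene. Transcripts of annotated pseudogenes at least 95% identical over at least 200 nt were found for 15 pseudogenes of H3f3a, 2 each of H3f3b and H2afz, and 1 each of H2afx and H2afy2. None was found for Cenpa, H2afv, H2afy, H1f0 or H1fx. H3f3c, 98.3% identical to H3f3a over 411 nt, was listed at 313 and 370 TPM, and the 7 measured copies of H3f3a together came to 16.7% and 18.2% of the level of H3f3a. Gm8203, 100% identical to H2afz over 387 nt, was listed at 156 and 143 TPM, or 19.1% and 15.6% of H2afz. For the other 3 genes the copies came to at most 2.25% of the gene.

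Reads that such copies share with their parent gene cannot be assigned with certainty, and the levels of H3f3a and H2afz carry that uncertainty. With the copies added, the ratio of H3f3a to H3f3b was 4.54 and that of H2afz to H2afv was 9.75. The replacement share of H3 was then 90.9 ± 0.566%.

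Finally the factors that place, remove or process histones were examined as lists chosen by known role. Of the 62 distinct factors 61 reached 1 TPM in each library, against 53.1% of protein-coding genes. The exception was Zfp473, a zinc finger protein of histone pre-mRNA processing, at 0.915 ± 0.0681 TPM.

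H3.3 is placed by the HIRA complex along genes and by DAXX with ATRX at repeats. All 8 factors of this list were detected, led by the chromatin protein Dek at 313 ± 27.6 TPM, Atrx at 38.3 ± 1.72 TPM and Asf1a at 30.3 ± 3.27 TPM. Hira was the lowest at 4.25 ± 0.420 TPM, and Ubn2 differed most between the libraries (log2 0.24). The 7 factors that place H3 behind the replication fork were all at 5 TPM or more, led by Rbbp4 at 223 ± 25.0 TPM, Mcm2 at 139 ± 5.06 TPM and Tonsl at 110.1 ± 2.58 TPM. Their lowest was Chaf1a at 24.2 ± 1.62 TPM, and Rbbp4 differed most (log2 -0.23). H3f3a thus stood above every factor of either list and 5 of the 8 H3.3 factors lay below Chaf1a.

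All 11 factors of H2A.Z exchange were detected. Anp32e, a chaperone that removes H2A.Z, was the highest at 114 ± 7.70 TPM, before the remodeller ATPases Ruvbl1 at 65.7 ± 3.62 TPM and Ruvbl2 at 63.0 ± 4.79 TPM. Ino80 was the lowest at 1.38 ± 0.0911 TPM, and Vps72 differed most (log2 0.21). H2afz lay above all 11 of them.

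The 8 factors of CENP-A loading were all at 5 TPM or more. Rbbp7 led at 249 ± 25.5 TPM, followed by Hjurp, the CENP-A chaperone, at 61.8 ± 5.42 TPM and Mis18a at 38.0 ± 1.16 TPM. Cenpc1 was the lowest at 10.6 ± 1.00 TPM. Cenpa itself lay above Hjurp 2.50-fold by all its forms and 1.27-fold by its coding forms.

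All 10 factors listed for the phosphorylation of H2A.X and the response to it were detected. They were led by Ppp4c, the catalytic subunit of a phosphatase, at 94.9 ± 1.46 TPM, Rnf8 at 26.8 ± 1.54 TPM and Trp53bp1 at 19.6 ± 0.202 TPM, while the kinase Atm was the lowest at 2.35 ± 0.320 TPM and Atr differed most (log2 0.28). H2afx lay above all 10. In histone pre-mRNA processing, Slbp, which binds the stem-loop, was at 244 ± 15.1 TPM, Cpsf3 at 34.0 ± 0.522 TPM and Casp8ap2 at 24.8 ± 0.280 TPM, and Cpsf2 differed most (log2 -0.14). All 9 genes in the list of H2A-H2B and H1 chaperones were detected. Npm1 led at 341 ± 34.5 TPM, before Ncl at 172 ± 14.9 TPM and Ssrp1 at 135 ± 1.76 TPM. The lowest was Prkdc at 3.07 ± 0.285 TPM, a kinase and not a chaperone, which the H2A.X list also holds. Nap1l1 differed most (log2 -0.27).

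**Figure D5:**
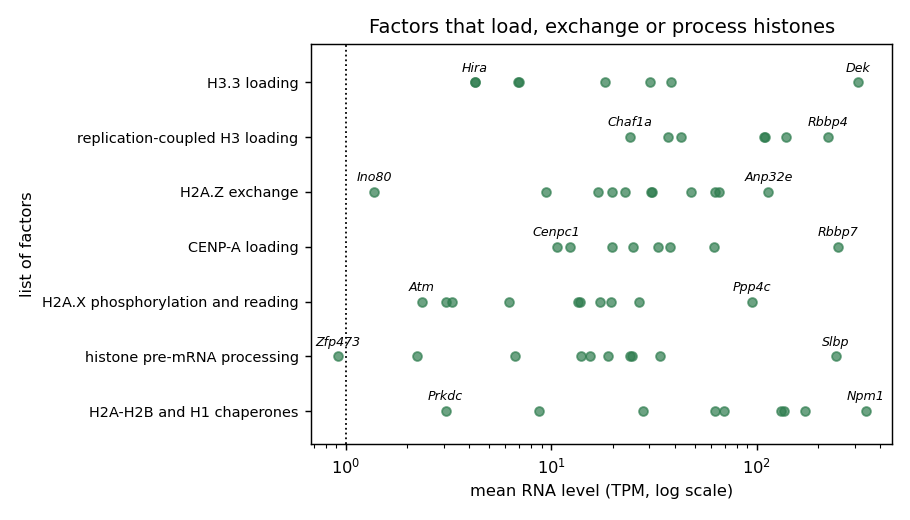
Mean RNA level of each factor in TPM on a log scale, 1 row for each of 7 lists, with the highest and lowest factor named and a dotted line at 1 TPM. Zfp473 is the only factor left of the line, at 0.915 TPM, and Npm1 at 341 TPM is the highest.

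Of 13 other variant histone genes, most of them known from testis or oocytes, 4 were detected. They were the pseudogene H3f3c given above, H2afj at 56.1 ± 2.73 TPM, Hist3h2a at 15.3 ± 0.264 TPM and Hist3h2ba at 8.72 ± 0.263 TPM. Hist1h1t, a testis linker histone, had 0.207 TPM in replicate 1 and was listed at 0 in replicate 2, and 7 genes, among them the oocyte linker histone gene H1foo, were listed at 0 in both. H2afj was lower than H2afz, H2afx, H2afv and H2afy and higher than H2afy2. It was left out of both the replacement and the replication-dependent H2A sums above. The sets overlap, as Hist3h2a and Hist1h1t were also counted above among the replication-dependent genes, which were taken by symbol.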

How the data were processed

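Gene and transcript tables of 2 libraries were used, which the labels number as biological replicates. Expected counts were deposited unscaled, as the authors' estimate of the reads from a gene or form. TPM and its posterior mean were deposited by the authors as abundances corrected for length and total, with spike-ins in that total. Deposited percent values of each form within its gene were recomputed from TPM. Tables were made on mm10 with annotation M4, per the file headers of the companion descriptions, and neither aligner nor quantifier is given in the sources used here.

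TPM was rescaled to the same total of 1000000 after 97 spike-in and 26248 numeric entries were left out. Symbols, coordinates and sequences came from GENCODE M21 (GRCm38), which named 42462 genes. Of 42 forms of the 10 genes in M21, 39 were measured, 4 of them with another length. Values are means ± SD over both libraries, with no p-values, since 1 group allows no comparison. Intervals of count ratios are exact Clopper-Pearson at 95% and cover counting error only, as reads without molecular identifiers are not independent molecules. Near-identical copies were sought with BLAST+ 2.17.0, and edgeR 4.0.16 and DESeq2 1.42.0 gave scaling factors alone. Tables and intervals were computed with pandas 2.3.3 and scipy 1.17.1 in Python 3.11.15. The intervals of count ratios and a 2-fold call on them were tested on counts simulated with sampling noise alone. These data vary more than that, and the log2 differences of TPM were not tested in this way. The genes and lists were chosen with earlier results of these data known. Named were all 10 genes, their forms with at least 5% of a gene, and in each list the 3 highest, the lowest and the one differing most between libraries, except 1 gene that is not reported here. In each class the 2 highest replication-dependent genes were named.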

Additional observations from a re-analysis of the deposited data

How the results depend on the processing

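By expected counts the replacement share was 95.7% for H3, 44.5% for H2A and 55.2% for H1, and the ratios were 1.83 for H3f3a to H3f3b, 9.58 for H2afz to H2afv, 17.1 for H2afy to H2afy2 and 68.7 for H1f0 to H1fx. Over protein-coding forms alone the ratio of H3f3a to H3f3b was 4.69 and that of H2afy to H2afy2 was 15.2. Adding near-identical pseudogenes, an alternative chosen after seeing the data, gave 90.9% for H3, 25.0% for H2A, 4.54 for H3f3a to H3f3b and 9.75 for H2afz to H2afv, and adding pseudogenes that carry a member's symbol gave 90.9% for H3. Leaving out Hist1h2ap, also chosen after seeing the data, gave 73.5% for H2A. With no filter on low values 5.11% of all genes differed by more than 0.32 on the log2 scale between the libraries, against 9.11% with it. With either library left out, the share was 89.4% to 90.4% for H3, 21.9% to 23.9% for H2A and 35.5% to 36.3% for H1, macroH2A1.1 was 11.95% to 17.5%, and the ratios, in the order above, were 3.86 to 3.91, 8.14 to 8.47, 20.5 to 24 and 34.2 to 35.9. Of the values of single genes and forms, 5 of 10 levels, 7 of 10 log2 differences and 12 of 14 form shares moved by more than their spread under at least 1 alternative. No paired analysis was possible because the series has 1 group. The spread rests on 2 pools, and the depth limits H2afy2 and H1fx most, at 94.9 to 280 expected counts.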
